A study of Mus musculus with 15 samples.

Results

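The 10 immediate early genes Fos, Fosb, Jun, Junb, Egr1, Atf3, Ier2, Nr4a1, Dusp1 and Zfp36 were taken by gene symbol from the ileum RNA-seq values of 15 mice, in which 17752 genes were listed in at least 1 mouse. All 10 were listed in every mouse and all 10 were kept by the filter on low counts, as were 14386 genes in total. Immediate early genes are transcribed within minutes of a growth factor, stress or contact signal, without the need for new protein, because the kinases that the signal activates act on transcription factors that already sit on their promoters. Their messages are short-lived, and several of their products (Dusp1, Zfp36, Atf3) act to end the response that induced them. In the intestine they are induced by epidermal growth factor receptor signalling, by mechanical stimuli and by tissue handling, and their transcripts are found in epithelial as well as muscle and stromal cells.

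The mice were female C57BL/6 (C57BL/6JOlaHsd in the study's methods), 8 weeks of age, and were all kept on the purified control diet of the study. Every 2 days for 10 days, 5 mice received water by gavage (water), 5 received low molecular weight grape proanthocyanidins at 200 mg/kg (low PAC), and 5 received high molecular weight grape proanthocyanidins at 200 mg/kg (high PAC). Proanthocyanidins are plant polyphenols built as chains of flavan-3-ol units, and the preparations differed in mean chain length. The study's methods describe fractions of low and medium mean degree of polymerization, and the high PAC group of the labels was taken here as the medium one, since the study had 3 groups of mice for this experiment. Each mouse was 1 library, and fewer cells of a type and less RNA per cell cannot be told apart in such whole-tissue samples.

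The expected counts of a mouse, which are the estimated number of read pairs per gene, summed to between 15963086 and 17903886. The labelled tissue held its markers, with 11 enterocyte genes including the ileal bile acid genes Fabp6 and Slc10a2 summing to between 18080 and 22650 FPKM (fragment counts scaled by transcript length and library depth) in each mouse. The library of high PAC replicate 3 stood apart in the sum of all FPKM values, which was 677075 against 502110 to 573980 in the other mice. It also held the highest summed erythrocyte markers, at 184 FPKM against 57.1 to 84.3 FPKM in the other high PAC mice, and crypt markers, at 639 FPKM against 386 to 436 FPKM. Water replicates 1 and 3 stood apart in muscle and nerve, with 312 and 271 FPKM of 8 smooth muscle markers against 864 to 917 FPKM in the other water mice, and 6.74 and 5.72 FPKM of 8 neuron and glia markers against 16.81 to 18.02 FPKM. Summed B cell markers ranged from 5.69 to 229 FPKM over the 15 mice. The main counts are given below also without high PAC replicate 3 and without water replicates 1 and 3, a choice made after the data were seen.

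The promoters are shown because most of the matched members shared 1 short element. RefSeq promoter sequences of 300 bases (250 before and 50 after the annotated start, build GRCm38.p6) matched 8 of the 10 members; Egr1 and Ier2 were not used here. The core of the cAMP response element, TGACG on either strand, was found in 6 of the 8 (Atf3, Dusp1, Fos, Fosb, Junb and Nr4a1), against 20.8% of all 32851 promoters of the same length. The full element TGACGTCA, which contains that core on both strands, was found in Dusp1 and in 1.79% of all promoters. The site of EGR proteins, GCGNGGGCG, was found in Fosb, Nr4a1 and Zfp36 and in 5.55% of all promoters. The serum response element core (CArG box) was found in Zfp36 and in 1.63% of all promoters, the TATA box TATAAA in Fos and Junb and in 13.6%, and the AP-1 site TGANTCA in no member and in 7.81%. Sites outside these 300 bases, and any site of Egr1 or Ier2, were not searched. A missing match therefore does not mean that a member lacks the element. The member promoters had a median GC content of 65% against 52.7% over all promoters, so the shares of all promoters are not those of promoters of like GC content. The motif matches are descriptions of these letters, not evidence of binding. The RefSeq and GENCODE starts differ for some members. The RefSeq start used for the promoter was within 30 bases of the start of a GENCODE transcript for all 8, but GENCODE also lists transcripts that start further upstream, so that it lay 34706 bases inside the gene position given for Atf3, 53656 for Dusp1, 12577 for Nr4a1 and 1025 for Zfp36. The 150 bases before the RefSeq start of 4 members are printed 5′ to 3′ on the strand of the gene, with the matches to these motifs in capitals: Fos at chr12:85473740-85473889 (plus strand), Fosb at chr7:19310046-19310195 (minus strand), Atf3 at chr1:191183334-191183483 (minus strand) and Zfp36 at chr7:28379229-28379378 (minus strand). The capitals mark, in order, 2 copies of the core and the TATA box in Fos, the core and the EGR site in Fosb, the core on the opposite strand in Atf3, and the EGR site and the CArG box in Zfp36.
Fos: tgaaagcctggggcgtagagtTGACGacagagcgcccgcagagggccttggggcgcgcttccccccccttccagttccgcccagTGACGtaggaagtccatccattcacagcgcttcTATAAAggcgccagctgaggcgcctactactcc
Fosb: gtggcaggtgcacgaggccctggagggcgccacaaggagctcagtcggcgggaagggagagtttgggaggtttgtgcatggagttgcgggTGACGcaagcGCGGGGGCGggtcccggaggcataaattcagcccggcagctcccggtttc
Atf3: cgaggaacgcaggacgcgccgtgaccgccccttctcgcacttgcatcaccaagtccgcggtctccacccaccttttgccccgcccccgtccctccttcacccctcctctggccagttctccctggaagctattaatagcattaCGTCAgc
Zfp36: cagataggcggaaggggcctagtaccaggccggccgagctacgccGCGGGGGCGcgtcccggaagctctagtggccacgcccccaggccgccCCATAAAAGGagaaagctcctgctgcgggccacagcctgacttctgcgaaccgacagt

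Zfp36, an RNA-binding protein that speeds the decay of cytokine messages, was the highest with a mean of 101 FPKM over the 15 mice, and its lowest mouse (74.46 FPKM) lay above the highest mouse of Junb (70.94 FPKM). Below it came Junb (52.7 FPKM), Fos (36.0 FPKM), Jun (24.2 FPKM), Ier2 (18 FPKM), Atf3 (9.06 FPKM), Egr1 (7.43 FPKM) and Dusp1 (5.57 FPKM), and each neighbouring pair in that order overlapped between mice. Nr4a1 (1.88 FPKM) lay below Dusp1 in every mouse, and it overlapped with Fosb (1.10 FPKM), the lowest of the 10. Fosb rested on 23 to 145 expected counts per mouse, Nr4a1 on 42 to 113 and Dusp1 on 118 to 258, and each of the other 7 members on at least 203 per mouse.

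In high PAC against water, the fitted difference was below 0 for all 10 members, and none passed an adjusted p of 0.05 (edgeR's quasi-likelihood test with Benjamini-Hochberg adjustment over 14386 genes). That threshold called 0.0139% of all genes tested. At an unadjusted p of 0.05, 6 members were lower (Fos, Fosb, Jun, Egr1, Atf3 and Zfp36) and none was higher, where 10.4% of all genes tested were lower and 4.37% higher. The median log2 fold change of the 10 members was -0.44 and that of all genes 0.00, and 49.5% of all genes lay below 0. No member had groups that did not overlap in FPKM, which 4.64% of all genes did. Without high PAC replicate 3 the count was also 6 (Nr4a1 in place of Jun), where 5.62% of all genes were lower and 5.25% higher. Without water replicates 1 and 3 it was 3 (Fos, Fosb and Zfp36), where 4.51% were lower, and the median of the members was -0.38. The balance of all genes depended on the scaling: 70.5% of the genes called at the unadjusted p were lower by edgeR, 58.8% by DESeq2, 57.3% with RLE scaling, 50.9% with no filter, 35.2% with upper-quartile scaling and 18.9% by limma on log2(FPKM + 0.1). With upper-quartile scaling 5 members were lower where 5.67% of all genes were, and by limma 4 members (Fos, Fosb, Jun and Zfp36) were lower where 3.67% of all genes were and 15.8% were higher. The count was 9 without water replicate 2, the water mouse with the lowest members, where 9.69% of all genes were lower. It was 4 without water replicate 3 or water replicate 4, where 7.53% and 9.79% were lower. By the exact permutation test, 2 members (Fos and Zfp36) were lower at an unadjusted p under 0.05, where the same test called 3.23% of all genes lower and 14.2% higher. That count was 1 without any 1 of water replicates 1, 3, 4 and 5 and high PAC replicates 1 and 5, where 1.98% to 3.57% of all genes were lower, and 4 without high PAC replicate 4, where 4.05% were.

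**Figure D1:**
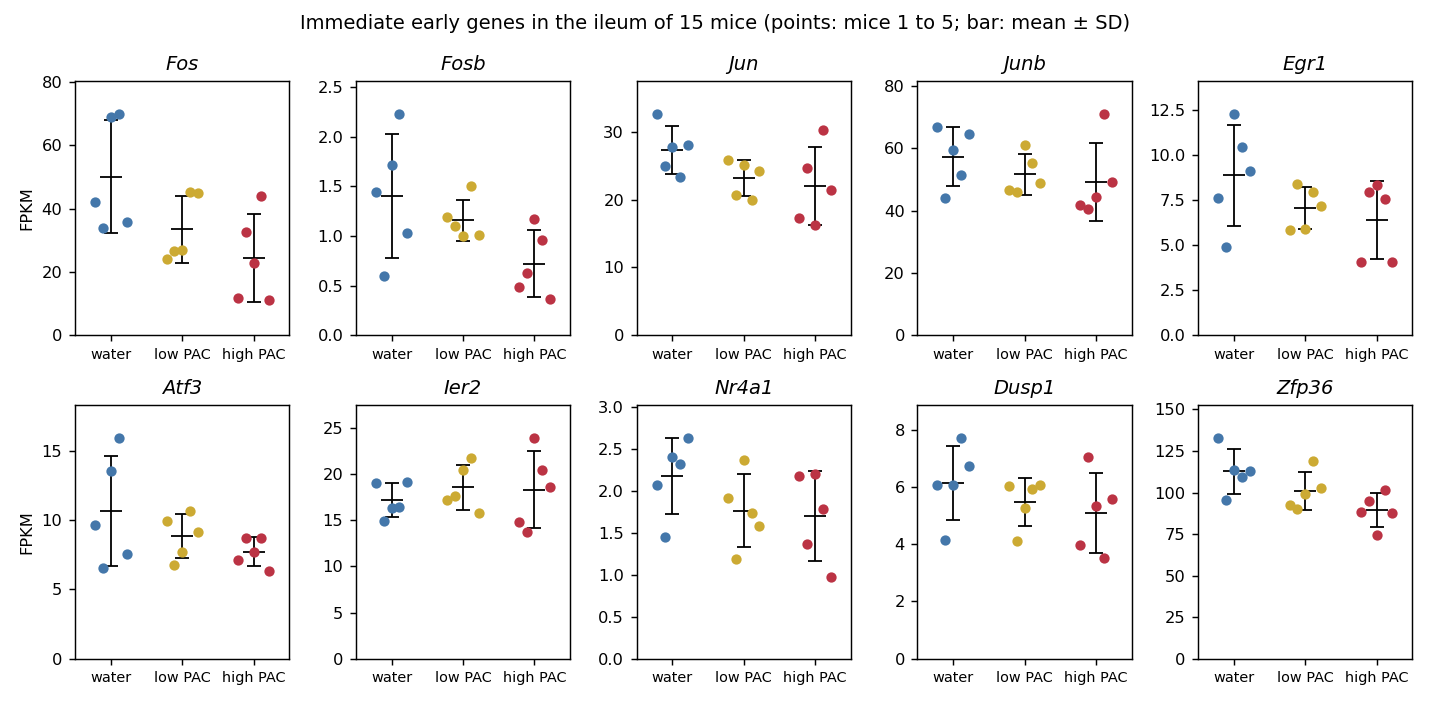
FPKM of the 10 immediate early genes (y axis, from 0, a scale for each gene) in the ileum of 5 water, 5 low PAC and 5 high PAC mice (points, replicates 1 to 5 from left to right), with the mean and SD of each group as bars. Fos ranged from 33.85 to 69.87 FPKM in water and from 11.22 to 43.84 FPKM in high PAC, and the groups overlapped for every gene.

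Fos, the AP-1 subunit that gives the group its classical readout, had the largest fitted difference of the members. Its gene lies at chr12:85473890-85477273 (plus strand). Water replicates 1 to 5 had 41.97, 33.85, 68.98, 69.87 and 35.87 FPKM of Fos. Low PAC replicates 1 to 5 had 24.13, 26.52, 26.83, 45.39 and 44.81 FPKM. High PAC replicates 1 to 5 had 11.67, 32.63, 22.67, 43.84 and 11.22 FPKM. Of the high PAC mice, 4 lay below every water mouse and replicate 4 lay among them, while low PAC replicates 1 to 3 lay below every water mouse and replicates 4 and 5 lay among them. The means were 50.1 ± 17.9 FPKM in water, 33.5 ± 10.6 FPKM in low PAC and 24.4 ± 14.0 FPKM in high PAC (SD, n = 5). The log2 fold change of high PAC against water was -1.13 (SE 0.36), with an adjusted p of 0.225 by edgeR and an unadjusted p of 0.0068. An exact two-sided permutation test of log2(FPKM + 0.1) gave p = 0.0476, where the smallest p that 5 against 5 mice allow is 0.0079.

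Fosb, a paralogue that also dimerizes with Jun proteins, followed at a far lower level. Its gene lies at chr7:19302696-19310051 (minus strand). Water replicates 1 to 5 had 1.44, 0.60, 1.72, 2.23 and 1.03 FPKM. Low PAC replicates 1 to 5 had 1.19, 1.10, 1.00, 1.5 and 1.01 FPKM, and high PAC replicates 1 to 5 had 0.49, 0.63, 1.17, 0.96 and 0.36 FPKM. The low PAC mice were close together, whereas water replicates 2 and 5 lay within the range of the high PAC mice. The log2 fold change of high PAC against water was -1.06 (SE 0.34), with an adjusted p of 0.225 by edgeR and an exact permutation p of 0.0714.

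Zfp36 had a smaller difference and the smallest p of the members, ranking 98 of 14386 genes. Its gene lies at chr7:28376784-28380253 (minus strand). Water replicates 1 to 5 had 132.89, 95.60, 113.30, 109.22 and 112.67 FPKM. Low PAC replicates 1 to 5 had 92.52, 90.39, 99.26, 119.19 and 103.04 FPKM, and high PAC replicates 1 to 5 had 88.25, 95.19, 74.46, 101.43 and 87.56 FPKM. Of the high PAC mice, 4 lay below every water mouse. The log2 fold change of high PAC against water was -0.43 (SE 0.11), with an adjusted p of 0.18 by edgeR, an unadjusted p of 0.00124 and an exact permutation p of 0.0159. DESeq2 gave Zfp36 a log2 fold change of -0.41 and an adjusted p of 0.0344, the 1 member call past the adjusted threshold among the alternatives tried. DESeq2 called 112 of the 14386 genes in this comparison (0.779%), against 2 by edgeR.

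The Jun partners of Fos showed smaller differences. Jun, at chr4:95049034-95052222 (minus strand), had 27.3 ± 3.56 FPKM in water, 23.2 ± 2.68 FPKM in low PAC and 22 ± 5.75 FPKM in high PAC (SD, n = 5), and a log2 fold change of high PAC against water of -0.41 (SE 0.16, adjusted p = 0.273 by edgeR). Junb, at chr8:84974484-84978718 (minus strand), had 57.3 ± 9.49, 51.6 ± 6.47 and 49.3 ± 12.6 FPKM in the same order, and a log2 fold change of -0.31 (SE 0.16, adjusted p = 0.368). High PAC replicate 4 held the highest Junb of all 15 mice, and without it the unadjusted edgeR p of Junb was 0.00131. Jun lost its unadjusted p under 0.05 without water replicate 1, high PAC replicate 1 or high PAC replicate 3.

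The remaining transcription factors lay between these sizes. Egr1, a zinc finger factor induced by the same kinases, had 7.61, 4.91, 12.25, 10.42 and 9.10 FPKM in water replicates 1 to 5 and 4.06, 7.96, 8.31, 7.57 and 4.03 FPKM in high PAC replicates 1 to 5. High PAC replicates 1 and 5 lay below every water mouse and the other 3 within the water range, and the log2 fold change was -0.57 (SE 0.25, adjusted p = 0.314 by edgeR). Atf3, a stress-induced repressor at chr1:191170296-191218039 (minus strand), had 9.67, 6.55, 13.50, 15.91 and 7.58 FPKM in water and 7.12, 8.72, 7.72, 8.73 and 6.31 FPKM in high PAC. High PAC replicate 5 lay below every water mouse in Atf3 and the other 4 within the water range, with a log2 fold change of -0.56 (SE 0.22, adjusted p = 0.27 by edgeR). Without water replicate 3 or water replicate 4, neither Egr1 nor Atf3 kept an unadjusted p under 0.05, and Egr1 also lost it without water replicate 5, high PAC replicate 1 or high PAC replicate 5. Nr4a1, an orphan nuclear receptor at chr15:101254269-101274795 (plus strand), had 2.17 ± 0.45 FPKM in water and 1.70 ± 0.53 FPKM in high PAC (SD, n = 5), with a log2 fold change of -0.45 (SE 0.23, adjusted p = 0.361 by edgeR).

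Dusp1, the phosphatase that switches off MAP kinases, had 6.14 ± 1.30 FPKM in water and 5.09 ± 1.40 FPKM in high PAC (SD, n = 5), with a log2 fold change of -0.37 (SE 0.19, adjusted p = 0.375 by edgeR). Its gene lies at chr17:26505590-26562128 (minus strand). Ier2, a nuclear protein at chr8:84661331-84662852 (minus strand), stood apart from the other 9. It had 17.2 ± 1.85 FPKM in water, 18.5 ± 2.47 FPKM in low PAC and 18.3 ± 4.17 FPKM in high PAC (SD, n = 5). Its log2 fold change of high PAC against water was -0.01 (95% interval -0.30 to 0.29), and its sign flipped under other scalings of the libraries.

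In low PAC against water, 0 members passed the adjusted p by edgeR, as did 0.0% of all genes. DESeq2 and limma also called 0 members, where DESeq2 called 0.0139% of all genes and limma 0.0%. At an unadjusted p of 0.05, 0 members were called in either direction, where 2.21% of all genes were lower and 1.4% higher. The fitted difference lay below 0 for 9 of the 10 members, against 54.5% of all genes, with a median log2 fold change of -0.31 against -0.01. Fos had the largest, -0.64 (95% interval -1.41 to 0.12), followed by Egr1 with -0.39 (-0.92 to 0.14) and Nr4a1 with -0.36 (-0.84 to 0.12). Of the genes called at the unadjusted p, 61.2% were lower by edgeR, 40.2% with upper-quartile scaling and 20.8% by limma on log2(FPKM + 0.1). Leaving out water replicates 1 and 3, 0 members were called at the unadjusted p, where 0.838% of all genes were lower and 0.851% higher, and the median of the members was -0.19. Without water replicate 2, 4 members (Egr1, Atf3, Nr4a1 and Zfp36) had an unadjusted p under 0.05, where 3.33% of all genes were lower, and without low PAC replicate 3 or low PAC replicate 4, 1 member (Nr4a1 or Zfp36) did, where 1.91% and 2.11% were lower. Both PAC groups were compared with the same 5 water mice, so the directions of the comparisons are not independent of each other.

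The PAC preparations, which differ in mean chain length, were compared at the same dose and gavage schedule, as 1 pair. The study's methods do not give the time between the last gavage and tissue collection. For high PAC against low PAC, 0 members passed the adjusted p by edgeR, as did 0.0% of all genes. DESeq2 and limma also called 0 members and 0.0% of all genes. Fosb was lower at an unadjusted p of 0.0468, where 2.05% of all genes were lower and 1.84% higher. Its log2 fold change was -0.74 (95% interval -1.47 to -0.01, adjusted p = 0.896), the exact permutation p was 0.0556, and 4 of the 5 high PAC mice lay below every low PAC mouse. The unadjusted p of Fosb was above 0.05 when any 1 of 8 of these 10 mice was left out, namely low PAC replicates 1 to 5 and high PAC replicates 1, 2 and 5. For Fos the difference was -0.48 (-1.25 to 0.28), which leaves room for a lower level by more than 1 on the log2 scale as well as for a small rise. For Ier2, Jun and Junb the intervals were -0.36 to 0.23, -0.44 to 0.23 and -0.44 to 0.23. Without high PAC replicate 4, 4 members had an unadjusted p under 0.05 in this comparison, all lower, where 3.98% of all genes were lower. Without high PAC replicate 3 it was Fosb alone, as with all mice, where 0.927% were lower. Of the genes called at the unadjusted p, 52.8% were lower by edgeR, 24.7% with upper-quartile scaling and 18.9% by limma on log2(FPKM + 0.1).

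**Figure D2:**
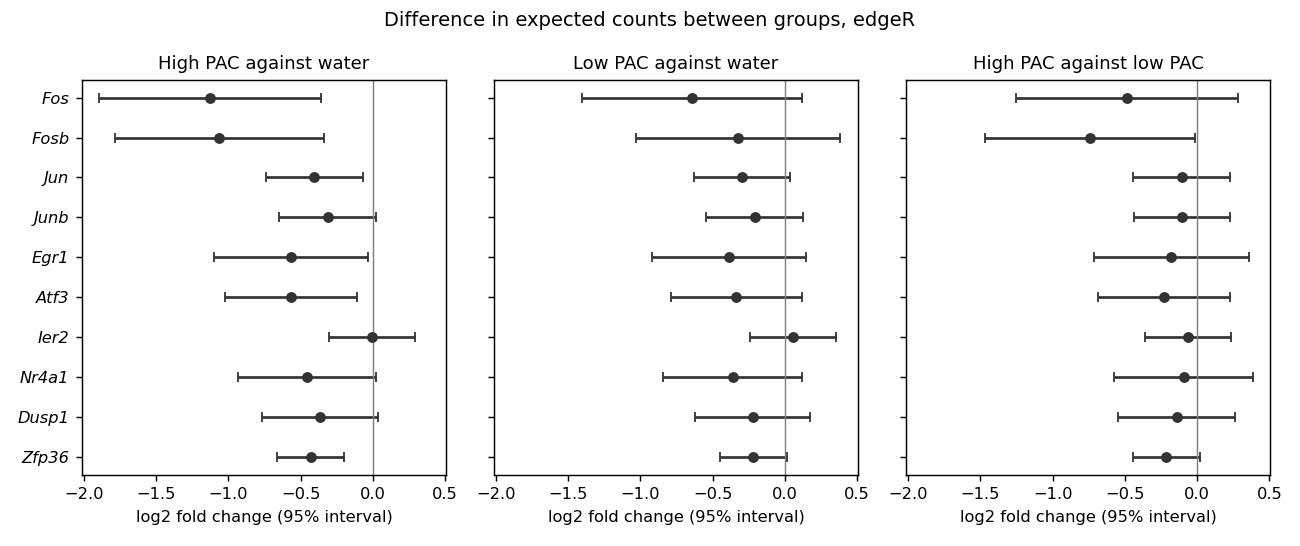
Log2 fold change of each member (points) with its 95% interval (bars) from edgeR on the expected counts, for high PAC against water, low PAC against water and high PAC against low PAC, with the line at 0. In high PAC against water, Fos (-1.13) and Fosb (-1.06) lie farthest from 0 and Ier2 (-0.01) lies on it.

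For 9 of the 10 members, Zfp36 being the exception, the spread between mice of a group was above that of most genes. With the group means subtracted, the SD of log2(FPKM + 0.1) was 0.64 for Fos, above that of 95.7% of all genes tested and of 98.6% of the 1477 genes within 0.5 log2 units of its level. Fosb (0.53), Egr1 (0.44), Nr4a1 (0.38), Atf3 (0.36) and Dusp1 (0.32) came next. Jun, Junb and Ier2 lay between 0.24 and 0.26, and Zfp36 had 0.16, above 38.5% of all genes. Against genes of like level, taken within the same 0.5 log2 units, the order after Fos was Egr1 (above 94.3%), Atf3 (93.4%), Jun (89.3%), Junb (87.3%), Dusp1 (85.7%), Ier2 (85.5%), Fosb (84.3%), Nr4a1 (73.9%) and Zfp36 (54.1%). The wide spread of Fos and the narrow spread of Zfp36 stand beside a larger fold change with a larger p and a smaller fold change with a smaller p.

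The 15 mice differed in the members as a whole. Water replicates 1, 3, 4 and 5 lay above the median of the 15 mice in 8 or 9 of the 10 members, and water replicate 4 held the highest value of 4 members. Water replicate 2 lay above the median in 1 member. Of the high PAC mice, replicates 1 and 5 each lay above the median in 1 member, and replicate 5 held the lowest value of 5 members. High PAC replicate 4 lay above it in 6 members, and high PAC replicate 3, the library with the highest summed FPKM, in 4.

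The members did not move as 1 block from mouse to mouse. Over the 45 pairs, with group means subtracted and all 15 mice, Pearson's r of log2(FPKM + 0.1) had a median of 0.29 and was above 0 in 38 pairs. A set of 4 genes, Fos, Fosb, Egr1 and Atf3, held the 5 pairs that passed an adjusted p of 0.05 (permutation test with 100000 resamples, Benjamini-Hochberg over 45 pairs). These were Fosb with Egr1 (r = 0.81, rho = 0.77), Fosb with Atf3 (r = 0.79, rho = 0.78), Fos with Egr1 (r = 0.78, rho = 0.82), Fos with Atf3 (r = 0.70, rho = 0.71) and Fos with Fosb (r = 0.70, rho = 0.75). The sixth pair of the set, Egr1 with Atf3, did not pass (r = 0.60, adjusted p = 0.0848, and rho = 0.56, adjusted p = 0.206, by permutation) and had r = -0.19 within low PAC. For the other 5 pairs, the permutation p ranged from 0.00016 to 0.00379 for r and from 0.00028 to 0.00384 for rho, and the adjusted p from 0.0072 to 0.0341 and from 0.0126 to 0.0288. When the 2 mice most distant from the median in the first gene of a pair were left out, r of the 5 pairs was 0.74, 0.62, 0.78, 0.73 and 0.74. The 5 pairs were positive within each of the 3 groups, where each r rests on 5 mice. When the permutation kept each mouse within its own group, a test chosen after the data were seen, 2 of the 5 pairs passed, namely Fos with Atf3 and Fosb with Atf3 (both adjusted p = 0.0248), and Fos with Egr1, Fosb with Egr1 and Fos with Fosb had adjusted p of 0.0556, 0.0556 and 0.132. The relation leaned on water replicate 2, without which the median r of the 45 pairs was 0.08 and 1 pair passed, although Fosb with Egr1 still had r = 0.72 and Fos with Egr1 r = 0.80. The count was 3 without any 1 of water replicates 1, 3, 4 and 5, low PAC replicate 3 and high PAC replicate 5, and 6 without high PAC replicate 3.

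The highest r of Junb did not pass. It had r = 0.63 with Zfp36, 0.62 with Ier2 and 0.62 with Jun, each at an adjusted p of 0.0772 by permutation. Without high PAC replicate 4, the mouse with the highest Junb, r of Junb with Jun was 0.33. Junb with Ier2 passed by Spearman's rho (0.73, adjusted p = 0.0248 by permutation), whereas Jun with Junb had rho = 0.43. Jun had a median r of 0.07 with the other 9 members, and its r with Fos, its dimer partner, was 0.32 (adjusted p = 0.52, with rho = 0.27 and adjusted p = 0.70, by permutation) and -0.02 without high PAC replicate 4. Dusp1 and Junb had the lowest r of all pairs, -0.13. Without group means subtracted, the median r of the 45 pairs was 0.42.

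**Figure D3:**
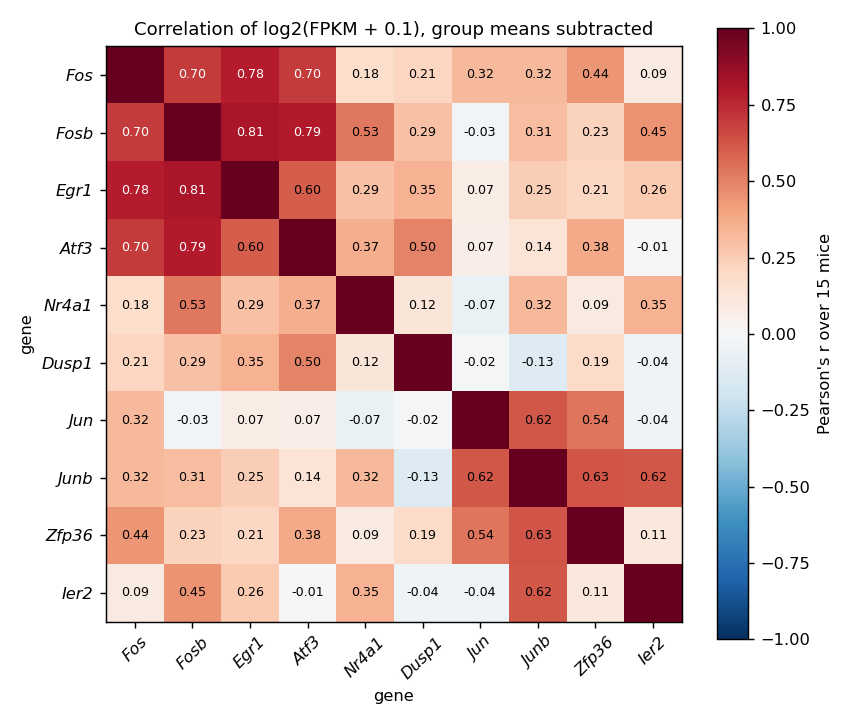
Pearson's r (colour and printed value) of log2(FPKM + 0.1) between the members over 15 mice with group means subtracted, both axes listing the 10 genes. The pairs among Fos, Fosb, Egr1 and Atf3 have r from 0.60 (Egr1 with Atf3, not past the adjusted p) to 0.81. Those among Jun, Junb and Zfp36 have r from 0.54 to 0.63, none past it, and Jun with Junb has 0.33 without high PAC replicate 4.

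Hbegf, which encodes a membrane-bound ligand of the epidermal growth factor receptor, followed the members most closely of all other genes. Among the 12410 other tested genes that averaged 1 FPKM or more, it ranked first both by rho with the mean of the 10 members (0.88) and by rho with Fos alone (0.88), over 15 mice with group means subtracted. Its r with Fos was 0.86 in water, 0.76 in low PAC and 0.93 in high PAC, each over 5 mice. Hbegf had 8.83 ± 2.37 FPKM in water, 7.46 ± 1.41 FPKM in low PAC and 6.11 ± 2.26 FPKM in high PAC (SD, n = 5), and its log2 fold change of high PAC against water was -0.63 (SE 0.25, adjusted p = 0.28 by edgeR). After Hbegf, the genes most like the mean of the members were Fcgr4 (rho = 0.83), an Fc receptor of myeloid cells, Stx18 (0.81), Wdr41 (0.80) and Id1 (0.78), an inhibitor of helix-loop-helix factors. Vps36, Ykt6, Cradd, Arl6ip4 and Cystm1 followed with rho from 0.73 to 0.77. After Hbegf, those most like Fos were Sult1b1 (0.75), a sulfotransferase, Gzmb (0.75), a granule protease of cytotoxic lymphocytes, Tnfaip8l3 (0.75) and Ido1 (0.74), which degrades tryptophan. These genes were picked as the highest of 12410, so their rho is a description and carries no p.

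**Figure D4:**
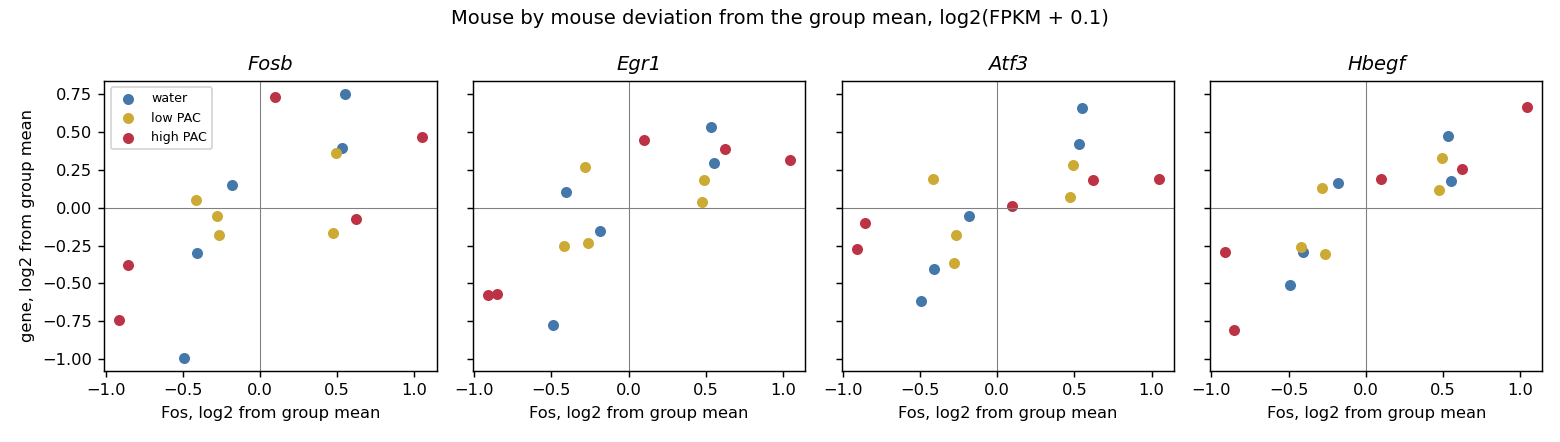
Deviation of each mouse from its group mean in Fos (x axis) against Fosb, Egr1, Atf3 and Hbegf (y axes), in log2(FPKM + 0.1), with mice coloured by group. Of the 7 mice above their group mean in Fos, all were above it in Egr1, Atf3 and Hbegf and 5 were in Fosb (not low PAC replicate 5 and high PAC replicate 2), with r = 0.70 for Fosb, 0.78 for Egr1, 0.70 for Atf3 and 0.88 for Hbegf.

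Related lists were read from the same edgeR fit. Of 51 other immediate early genes tested, 0 passed the adjusted p in high PAC against water, 9 were lower and 0 higher at an unadjusted p of 0.05, and the median log2 fold change was -0.14. The largest differences were those of Tnfaip3, a brake on NF-kappaB (-0.58, SE 0.21), Spry4, an inhibitor of receptor tyrosine kinase signalling (-0.52, SE 0.18), and Sgk1, a serum- and glucocorticoid-induced kinase (-0.51, SE 0.30). Of 33 genes of the upstream ligands, receptors, kinases and factors, 0 passed the adjusted p, 11 were lower and 1 higher at the unadjusted p, with Hbegf (-0.63), Erbb3 (-0.50, SE 0.19), an ErbB receptor subunit, and Egf (0.51, SE 0.15), the growth factor itself, as the largest. Of 13 tested AP-1 and inflammatory target genes, 0 passed and 5 were lower at the unadjusted p, including the matrix metalloproteinases Mmp10 (-0.62, SE 0.19), Mmp9 (-0.60, SE 0.22) and Mmp13 (-0.41, SE 0.18). Mmp3, another matrix metalloproteinase, went the other way (0.39, SE 0.29). The fitted difference was below 0 for 9 of the 13, with a median of -0.24. The lower counts of these lists at the unadjusted p stand beside the 10.4% of all genes called lower. Without high PAC replicate 3, 5 of the other immediate early genes were lower, 5 of the upstream genes were lower and 3 higher, and 4 of 14 tested target genes were lower, where 5.62% of all genes were lower and 5.25% higher. Without water replicates 1 and 3 the lower counts were 4 of 51, 3 of 33 and 2 of 14, where 4.51% of all genes were lower.

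With all mice, stress and clock genes gave no calls in that comparison, where 10.4% of all genes were lower and 4.37% higher at the unadjusted p. Of 14 heat shock genes, 12 genes of the integrated stress response and 14 clock genes, 0 passed at either the adjusted or the unadjusted p, with median log2 fold changes of -0.06, 0.02 and -0.18. The largest of each were Hspa1b, an inducible Hsp70 (-0.54, SE 0.27), Chac1, a target of Atf4 (0.39, SE 0.42), and Per1, a clock gene that is also induced as an immediate early gene (-0.39, SE 0.27). Without high PAC replicate 3, 1 heat shock gene was lower and 1 integrated stress gene higher, where 5.62% of all genes were lower and 5.25% higher. Without water replicates 1 and 3, 1 integrated stress gene was lower, where 4.51% of all genes were. No clock gene was called in either fit.

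Of 7 markers of the villus tip, 6 were lower in high PAC than in water at an unadjusted p under 0.05, where 10.4% of all genes were lower and 4.37% higher, and these shares stand beside the counts of all the marker lists that follow. The fitted difference was below 0 for all 7, from -0.15 for Egfr to -1.34, and Slc28a2, a nucleoside transporter, fell by 1.34 on the log2 scale (SE 0.16, adjusted p = 0.00449 by edgeR), the 1 gene of these lists past the adjusted threshold. The villus tip list shares Klf4 with the other immediate early genes and Egfr with the upstream list. Its summed level was 493 to 1001 FPKM in water, 416 to 664 FPKM in low PAC and 394 to 488 FPKM in high PAC. A large part of that sum was Apoa4, with means of 424, 241 and 201 FPKM in the same order. Water replicate 2 had the lowest sum of the water mice, and also the lowest value among them for 9 of the 10 members, Jun being the exception. Of 11 enterocyte markers, 5 were lower at the unadjusted p with a median of -0.33, and their summed level was 18080 to 22650 FPKM in water and 18790 to 20490 FPKM in high PAC. Of 8 crypt markers, 2 were higher, with a median of 0.21. Of 8 smooth muscle markers, 0 were called, with a median of 0.42 and summed levels of 271 to 917 FPKM in water and 692 to 1104 FPKM in high PAC. Of the other marker lists, 3 of 8 neuron and glia genes and 1 of 5 erythrocyte genes were higher at the unadjusted p, 2 of 3 tested mast cell genes and 1 of 5 tested macrophage and neutrophil genes were lower, and no gene of the fibroblast, endothelium, B cell, T cell, mesothelium and pancreas lists was called. Without high PAC replicate 3, 4 villus tip and 3 enterocyte genes were lower, 1 crypt, 0 erythrocyte and 4 neuron and glia genes were higher, and Slc28a2 still passed the adjusted p, where 5.62% of all genes were lower and 5.25% higher at the unadjusted p. Without water replicates 1 and 3, 4 villus tip genes were lower with none past the adjusted p, 1 enterocyte gene was lower and 1 higher, 0 crypt and 0 neuron and glia genes were called, 2 erythrocyte genes were higher, and the median of the smooth muscle markers was -0.02, where 4.51% of all genes were lower and 3.23% higher. The part of these cell types in the differences of the members was not tested. The mean level of 19 lists was also set against Fos over the 15 mice with group means subtracted, a comparison chosen after the data were seen, and none passed (smallest adjusted p of 0.888 for Pearson's r and 0.934 for Spearman's rho, by permutation). The r with Fos lay between -0.31 (neuron and glia) and 0.28 (AP-1 and inflammatory targets), with -0.29 for smooth muscle and 0.12 for the other immediate early genes. For the AP-1 and inflammatory targets r was 0.05 in water, -0.76 in low PAC and 0.54 in high PAC, each over 5 mice. For the villus tip list r was 0.16, and -0.19 in water, 0.53 in low PAC and 0.68 in high PAC, each over 5 mice.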

How the data were processed

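Ileum tissue of 15 mice was collected at euthanasia and kept in RNAlater, and total RNA later extracted from it was sequenced by the authors on a BGISEQ-500. The study's methods describe cleaning of reads with SOAPnuke and mapping to mm10 with Bowtie2, whereas the submitters' processing notes name HISAT and DESeq2; the tool that counted reads is not given in the sources used here. The authors deposited for each mouse an expected count per gene, which is an estimated count that is not normalized, and an FPKM, scaled by gene length and library; the length column, also deposited by the authors, was used only to check the scaling. A gene not listed in a mouse was given 0. Expected counts summed to between 15963086 and 17903886 per mouse, so counting error is small except in Fosb, Nr4a1 and Dusp1.

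The 5 mice per group are those of the sample titles. Rounded expected counts were tested with edgeR 4.0.16 (TMM, filterByExpr, quasi-likelihood, 1 model of 15 mice, R 4.3.3), with adjusted p over 14386 genes. Single members were tested by an exact permutation test of log2(FPKM + 0.1) over 252 arrangements of the 10 mice, and correlations by 100000 permutations (scipy 1.17.1). These permutations ran over all 15 mice after the group means were subtracted, which makes their p somewhat small. The steps were tested on simulated data. Alternatives were other scalings, filters, DESeq2 1.42.0, limma 3.58.1, a replicate block and leaving out each mouse. The members and lists were chosen with earlier results of these data known. The genes named from the related lists were those past an adjusted p of 0.05, otherwise at most the 3 with the largest difference in high PAC against water. Mmp3 was named in addition because it went the other way. The study's NOIseq test was not run. Gene positions are from GENCODE vM21 (GRCm38) and promoters from RefSeq (GRCm38.p6).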

Additional observations from a re-analysis of the deposited data

Results flagged for a closer look

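Junb in high PAC replicate 4 lay far from the other 4 high PAC mice, at 70.94 FPKM against a next highest of 49.03 FPKM and a lowest of 40.42 FPKM. The gap was 0.718 of the group's range, above the critical ratio of 0.71 for 5 values. It was the 1 value of this kind among 30 gene and group combinations, and chance alone gives about 1 in 20 such groups. The same mouse also held the highest Fos (43.84 FPKM), Jun (30.35 FPKM) and Zfp36 (101.43 FPKM) of its group, and the lowest Dusp1 of all 15 mice (3.53 FPKM).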

How the results depend on the processing

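Of 590 recomputed differences of single members, 573 kept their direction and their side of the adjusted threshold, 16 reversed and 1 passed newly. The replicate numbers did not pair the mice: same-numbered mice correlated above 0.1 in 5 of 15 pairs (lowest -0.31), 2 of the 15 mice correlated best with their own number, and with a replicate block 7 members were lower at an unadjusted p under 0.05 in high PAC against water (8.88% of all genes were lower and 3.91% higher), while the median r of the 45 pairs was 0.17. In high PAC against water, DESeq2 called 1 member at the adjusted p (Zfp36), with 112 of all 14386 genes, and 3 members had an unadjusted p under 0.05 without water replicates 1 and 3 (4.51% of all genes were lower). Ier2 in that comparison had a log2 fold change of 0.015 with RLE scaling, 0.058 with upper-quartile scaling, 0.024 with no filter, 0.015 with DESeq2, 0.066 and 0.064 with limma on log2(FPKM + 0.1) and log2(FPKM + 1), 0.053 without water replicates 1 and 3, and ranged from -0.080 to 0.073 without 1 mouse. Without 1 mouse, Ier2 ranged from -0.0057 to 0.11 in low PAC against water and from -0.16 to 0.019 in high PAC against low PAC, where Nr4a1 ranged from -0.20 to 0.055. Members with an unadjusted p under 0.05 in low PAC against water numbered 2 in a fit of those 2 groups alone (2.78% of all genes were lower) and from 0 to 4 without 1 mouse (1.27% to 3.33%). In high PAC against low PAC they numbered 0 with upper-quartile scaling and with limma on log2(FPKM + 1) (1.16% and 0.966% of all genes were lower), and from 0 to 4 without 1 mouse (0.927% to 3.98%). Members with an exact permutation p under 0.05 ranged without 1 mouse from 1 to 4 in high PAC against water (2 with all mice), from 0 to 2 in low PAC against water and from 0 to 1 in high PAC against low PAC, where the same test called 1.98% to 4.05%, 0.758% to 2.1% and 0.48% to 1.5% of all genes lower. The median r of the 45 pairs was 0.42 without subtraction of group means and ranged from 0.078 (without water replicate 2) to 0.33 without 1 mouse. Pairs past the adjusted p numbered 2 of 45 when the permutation stayed within groups and from 1 to 7 without 1 mouse. The causes of these shifts were not tested.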
